A study of Mus musculus with 12 samples.

Results

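Genes with symbols of oxidative phosphorylation subunits made up 89 of the 20718 genes measured in mouse testis. They were chosen by gene symbol, to take in the nuclear-coded subunits of respiratory complexes I to IV, cytochrome c and the ATP synthase, with their tissue isoforms. A matching symbol was enough, so Atp5s and Ndufa11b were counted whether or not they code a structural subunit. The symbols taken were Nduf with a letter a, b, c, s or v and a number, Sdha to Sdhd, all Uqcr genes, Cox4 to Cox8 with a letter, Cycs, Cyct and all Atp5 genes. The symbol rule itself used no expression value, but it was set with earlier results of these data known. Complex I was represented by 38 genes, complex II by 4, complex III by 8, complex IV by 20 (Ndufa4 and its paralog Ndufa4l2 counted here), the ATP synthase, also called complex V, by 17 and cytochrome c by 2. A filter on low counts left 86 of the 89 for testing, and Cox8b, Cox6a2 and Ndufb4b were not tested.

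RNA was sequenced from testes of F0 mice, of a strain the labels spell IRC mouse, in 12 libraries that fell into 4 groups of 3. In OV a virus overexpressed lncRNA8276 in the testes, and in KD a virus inhibited it. The labels leave the names 3NC and 5NC unexplained. Both were taken as controls, with OV set against 5NC and KD against 3NC, from the order in which the design text lists them. The sources used here give neither the vector, nor the cells it reached, nor the age of the mice. lncRNA8276 itself was not analysed here, so the levels it reached in OV and KD do not enter the results. No label ties a library to its own animal, so the p-values describe the spread between libraries, which may be technical.

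Respiratory complexes I and II take electrons from NADH and succinate, complex III passes them to cytochrome c, and complex IV, cytochrome c oxidase, hands them to oxygen. Complexes I, III and IV pump protons across the inner mitochondrial membrane, and the ATP synthase uses the proton gradient to make ATP. Most subunits are coded in the nucleus, and a small set is coded in the mitochondrial genome. Male germ cells replace some general subunits with testis forms: Cyct takes the place of the cytochrome c Cycs, and Cox6b2, Cox7b2 and Cox8c take the place of Cox6b1, Cox7b and Cox8a in complex IV. Cox7b lies on the X chromosome, which is silenced during male meiosis, whereas Cox7b2 is autosomal.

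The start regions of Cox7b and Cox7b2 and of Cycs and Cyct, general and testis isoforms, are shown. These isoforms are among those with the level differences described next. Cox7b is also the 1 gene of the set that passed in the edgeR fit of all 12 libraries without a replicate block. Each window runs from 250 bases before to 50 bases after the gene start in RefSeq (GRCm38.p6), 5′ to 3′ on the strand of the gene. Capitals mark matches to 4 motifs searched on both strands: GCATGCGC for NRF1, CCGGAAGT for ETS factors such as GABP, TGACGTCA for CREB family factors and AAGATGGC for YY1.
Cox7b (chrX:106015450-106015749, plus strand): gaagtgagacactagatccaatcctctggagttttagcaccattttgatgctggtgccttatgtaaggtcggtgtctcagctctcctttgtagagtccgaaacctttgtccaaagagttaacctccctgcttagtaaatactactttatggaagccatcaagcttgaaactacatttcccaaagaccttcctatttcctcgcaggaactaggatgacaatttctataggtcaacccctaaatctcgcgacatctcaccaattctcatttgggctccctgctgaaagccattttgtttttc
Cox7b2 (chr5:71548156-71548455, minus strand): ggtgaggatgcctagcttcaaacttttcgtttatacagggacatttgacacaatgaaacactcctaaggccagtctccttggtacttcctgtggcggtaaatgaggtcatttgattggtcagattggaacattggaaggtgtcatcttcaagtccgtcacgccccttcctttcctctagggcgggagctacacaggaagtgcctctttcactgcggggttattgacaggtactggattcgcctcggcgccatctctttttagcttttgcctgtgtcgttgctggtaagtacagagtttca
Cycs (chr6:50566520-50566819, minus strand): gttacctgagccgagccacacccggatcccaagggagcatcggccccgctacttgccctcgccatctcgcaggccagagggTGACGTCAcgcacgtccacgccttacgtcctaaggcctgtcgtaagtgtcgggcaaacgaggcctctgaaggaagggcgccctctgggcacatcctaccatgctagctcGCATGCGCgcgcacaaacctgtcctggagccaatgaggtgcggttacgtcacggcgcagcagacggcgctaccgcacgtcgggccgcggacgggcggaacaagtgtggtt
Cyct (chr2:76360404-76360703, minus strand): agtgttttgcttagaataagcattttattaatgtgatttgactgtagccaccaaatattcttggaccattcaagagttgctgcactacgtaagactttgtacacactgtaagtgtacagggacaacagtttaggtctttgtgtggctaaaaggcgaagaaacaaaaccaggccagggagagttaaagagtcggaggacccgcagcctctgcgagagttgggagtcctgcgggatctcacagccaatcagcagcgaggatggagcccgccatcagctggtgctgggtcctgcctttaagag
The Cycs window held 1 match to the CREB family motif and 1 to the NRF1 motif, and the other 3 windows held none of the 4. The windows of Cox6b1, Cox6b2 and Atp5e, searched but not shown, also held none. The Cycs window had 65% G and C, against 48.3% for Cyct, 43.3% for Cox7b and 48.7% for Cox7b2. RefSeq windows were matched for 71 of the 89 genes, 76 windows in all. The NRF1 motif was in 11 of these 76 windows (14.5%) and in 891 of all 32851 windows of the same length (2.71%). The YY1 motif was in 10 (13.2%, against 2.75% of all windows), the CREB family motif in 5 (6.58%, against 1.79%) and the ETS motif in 5 (6.58%, against 3.89%). A match describes letters in the window and was not tested as a binding site.

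Libraries held 15448442 to 16355720 estimated reads, and 18624 to 18797 genes had at least 1 read. Markers of spermatocytes summed to 3981 to 4360 CPM (reads scaled to a library size corrected by edgeR's TMM factors of 0.986 to 1.06), those of round spermatids to 1389 to 1660.1 and those of elongating spermatids to 18154 to 23723 in every library, as the labelled tissue would hold, and striated muscle markers summed to 2.20 to 4.12. The first principal component (19.1% of variance) set OV replicates 1 and 3 and 3NC replicate 2 apart from the rest, with scores of 30.2, 30.3 and 29.0 against −16.1 to 10.3. 5NC replicate 1 stood apart in its cell type markers. Its 7 Leydig cell markers summed to 3046 CPM against 1249.7 to 2312 in the other 11 libraries, and its 8 Sertoli cell markers to 1311 against 654 to 893. Its germ cell markers were lowest for round spermatids (1389 against 1572 to 1660.1) and spermatocytes (3981 against 4053 to 4360). For elongating spermatids it had 18313, above 3NC replicate 2 (18154). 5NC replicate 1 also had the TMM factor farthest from 1, which the CPM and the fits include and the FPKM do not. In bulk tissue, fewer cells of a type and less RNA per cell cannot be told apart.

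The set took 0.610% to 0.736% of all reads in a library. Levels between genes were compared in FPKM, the read count scaled to gene length and library total. The mean over the 12 libraries ran from 0.0675 FPKM for Cox8b to 647 for Cox8c, with a median of 88.1. Complex IV genes stood highest as a group, with a median of 150 FPKM, followed by the ATP synthase with 130, complex III with 110, complex I with 79.5 and complex II with 44.7. Of the 10 highest genes, 8 belonged to complex IV: Cox8c, Cox6b2, Cox6c, Cox7c, Cox4i1, Cox7b2, Cox7a2 and Cox5b, and the other two were the ATP synthase beta subunit Atp5b and the complex I subunit Ndufa12.

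Complex I is built around a core of catalytic subunits with many accessory subunits. Among its nuclear-coded core genes the mean level ran from 26.4 FPKM for Ndufs8 and 29.5 for Ndufs7, which carry iron-sulphur clusters close to the quinone site, to 85.7 for Ndufs3 and 127 for Ndufv2. Between them were Ndufs1 (40.7) and the flavin-binding Ndufv1 (61.9). The accessory subunits spread further, with Ndufa12 at 293, Ndufa7 at 238, Ndufc1 at 205 and Ndufb8 at 203 FPKM, but Ndufb11 at 17.1 and Ndufa11 at 7.06. Ndufa11b, annotated as a transcribed pseudogene, had 3.72 FPKM and Ndufb4c, a paralog of Ndufb4, 30.2 against 139 for Ndufb4, values that reads shared between copies can alter.

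In complex II the catalytic subunits Sdha and Sdhb had 54.6 and 73.3 FPKM and the membrane anchors Sdhc and Sdhd 30.2 and 34.9. In complex III the Rieske protein Uqcrfs1 had 73.9 FPKM, the core proteins Uqcrc1 and Uqcrc2 154 and 58.6, and the small subunits Uqcrb and Uqcr10 174 and 155. In the ATP synthase head, beta (Atp5b) had 327 FPKM, alpha (Atp5a1) 111, gamma (Atp5c1) 115, delta (Atp5d) 86.4 and epsilon (Atp5e) 177. The c subunit of the rotor ring has 3 genes that code the same mature protein, and all were expressed: Atp5g3 had 98.7 FPKM, Atp5g1 60.8 and Atp5g2 55.3.

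Testis isoforms exceeded their general counterparts in all 12 libraries. Cox8c had 647 FPKM against 52.5 for Cox8a, and the ratio lay between 8.45 and 14.96. Cox7b2 had 317 against 13.8 for Cox7b, a ratio of 22.9 between the means and of 16.1 to 37.3 between libraries. Cyct had 120.3 against 18.9 for Cycs, with ratios of 4.93 to 7.45, and Cox6b2 had 398 against 64.8 for Cox6b1, with ratios of 3.72 to 8.03. As a share of the summed FPKM of each pair, Cox7b2 made up 95.8%, Cox8c 92.5%, Cyct 86.4% and Cox6b2 86.0%. The libraries lowest in the Cox6b2 ratio were 3NC replicate 2 (3.72) and OV replicate 3 (4.61), 2 of the 3 libraries that stood apart.

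**Figure D1:**
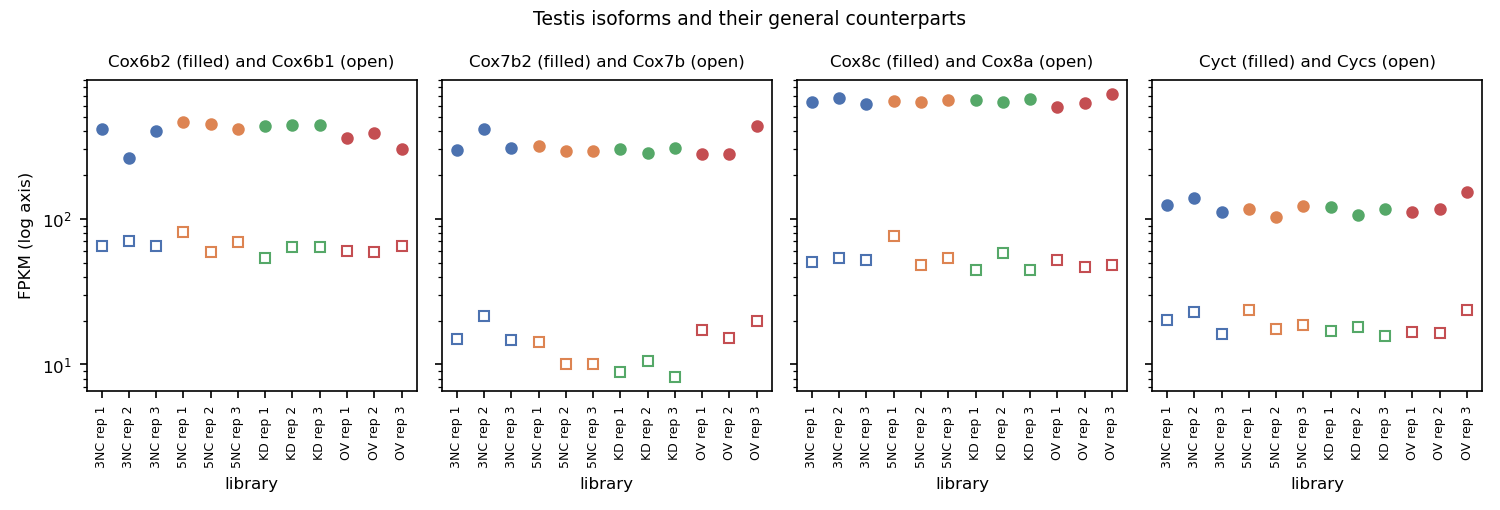
FPKM (log axis) of 4 testis isoforms (filled circles) and their general counterparts (open squares) in each of the 12 libraries, coloured by group. The testis form lies above the general form in every library, and the gap is widest for Cox7b2 over Cox7b.

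Isoforms known from other tissues were scarce. Cox4i2, the lung form of subunit 4, reached 0.429 to 1.06 FPKM, or 0.182% of its pair with Cox4i1 (355 FPKM). Cox7a1, the heart and muscle form, had 4.83 FPKM against 279 for Cox7a2. Cox6a2 and Cox8b, further heart and muscle forms, had at most 6 and 2 reads in a library, and Cox8b had reads only in KD replicates 1 and 3. Ndufa4l2 was the 1 non-testis isoform near its counterpart, with 25.9 FPKM against 42.9 for Ndufa4. Cox7a2l, which helps join complexes III and IV into supercomplexes, had 56.4.

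The 3 genes of the set on the X chromosome were low for their complexes. Ndufa1 had 43 FPKM and Ndufb11 17.1, both accessory subunits of complex I (median 79.5), and Cox7b had 13.8 in complex IV (median 150). Ndufa1 overlaps Rnf113a1 and Ndufb11 overlaps Rbm10, so reads of the overlapping genes cannot be told apart where counting ignored strand. In all, 28 of the 89 genes overlap another RefSeq gene and many have processed pseudogenes, so single values may hold shared reads.

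Most of the set varied little. Over the 82 genes with a mean of at least 10 FPKM, the ratio of the highest to the lowest library was smallest for Ndufv2 (1.11), Uqcrfs1 (1.14) and Atp5b (1.15), and largest for Atp5e (2.16) and Cox7b (2.62). Cox8c ran from 589 to 720.2 FPKM, a ratio of 1.22. The 2 genes of widest spread are described first.

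Cox7b (gene 66142, chromosome X, 106015700 to 106022450, mm10), a small subunit of complex IV, had 14.9, 21.6 and 14.8 FPKM in 3NC, 14.3, 10.1 and 10.1 in 5NC, 8.92, 10.6 and 8.21 in KD and 17.3, 15.1 and 19.9 in OV, from 114 to 302 reads in a library. All 3 OV libraries lay above all 5NC libraries, and all 3 KD libraries lay below all 3NC libraries. The log2 fold change was 0.61 ± 0.17 in OV against 5NC (edgeR adjusted p = 0.404) and −0.87 ± 0.17 in KD against 3NC (adjusted p = 0.0917), and neither passed. The difference between these effects was 1.48 ± 0.24 (edgeR adjusted p = 0.0461), which passed. Cox7b was the 1 gene called among 86 (1.16%), against 10 of all 16320 genes tested (0.0613%). That difference also holds the difference between the controls: 5NC lay below 3NC in every library, at −0.58 ± 0.17 (adjusted p = 0.26).

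Against the other control the Cox7b values were small. OV against 3NC gave 0.03 ± 0.17 and KD against 5NC −0.28 ± 0.18, while OV against KD gave 0.90 ± 0.17 (edgeR adjusted p = 0.0936). So OV stood at the level of 3NC and KD near the level of 5NC. The call was near its threshold. It was lost with the replicate number as a block (adjusted p = 0.0897) and in 10 of the 12 fits that left out a library (log2 1.29 to 1.63, adjusted p = 0.0306 to 0.215), all but those without 5NC replicate 1 or OV replicate 2. DESeq2 gave an adjusted p of 5.75e-05 for the difference.

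Cox7b2 (gene 78174, chromosome 5, 71442823 to 71548205), the autosomal testis form, had 296, 416 and 306 FPKM in 3NC, 315, 292 and 293 in 5NC, 302, 284 and 306 in KD and 279, 280.3 and 432 in OV. Its groups overlapped in each comparison, and its log2 fold changes of 0.14 ± 0.15 in OV against 5NC and −0.16 ± 0.15 in KD against 3NC did not pass. The ratio of Cox7b2 to Cox7b was 19.9, 19.3 and 20.7 in 3NC, 22, 28.8 and 29.1 in 5NC, 33.9, 26.7 and 37.3 in KD and 16.1, 18.6 and 21.8 in OV. KD had the highest ratios and OV and 3NC the lowest, and KD did not overlap 3NC, OV did not overlap 5NC, and 5NC did not overlap 3NC. On the log2 scale the ratio differed by 0.70 between KD and 3NC, by −0.50 between OV and 5NC and by 0.41 between 5NC and 3NC. With 3 libraries against 3 an exact permutation test cannot go below p = 0.10, so no test was made on the ratio.

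The other testis isoform ratios mostly overlapped. Cyct over Cycs and Cox8c over Cox8a overlapped between OV and 5NC, KD and 3NC, and 5NC and 3NC. The ratio of Cox6b2 to Cox6b1 was 6.31, 3.72 and 6.16 in 3NC, 5.66, 7.57 and 6.04 in 5NC, 8.03, 6.92 and 6.91 in KD and 6.02, 6.57 and 4.61 in OV, higher in all KD than in all 3NC libraries and overlapping between OV and 5NC. Cox6b2 itself had 412, 263 and 401 FPKM in 3NC, 461, 449 and 417 in 5NC, 434, 445 and 441 in KD and 362, 389 and 302 in OV. Its log2 fold changes were −0.33 ± 0.15 in OV against 5NC and 0.32 ± 0.15 in KD against 3NC, and neither passed (edgeR adjusted p = 0.458 and 0.764).

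**Figure D2:**
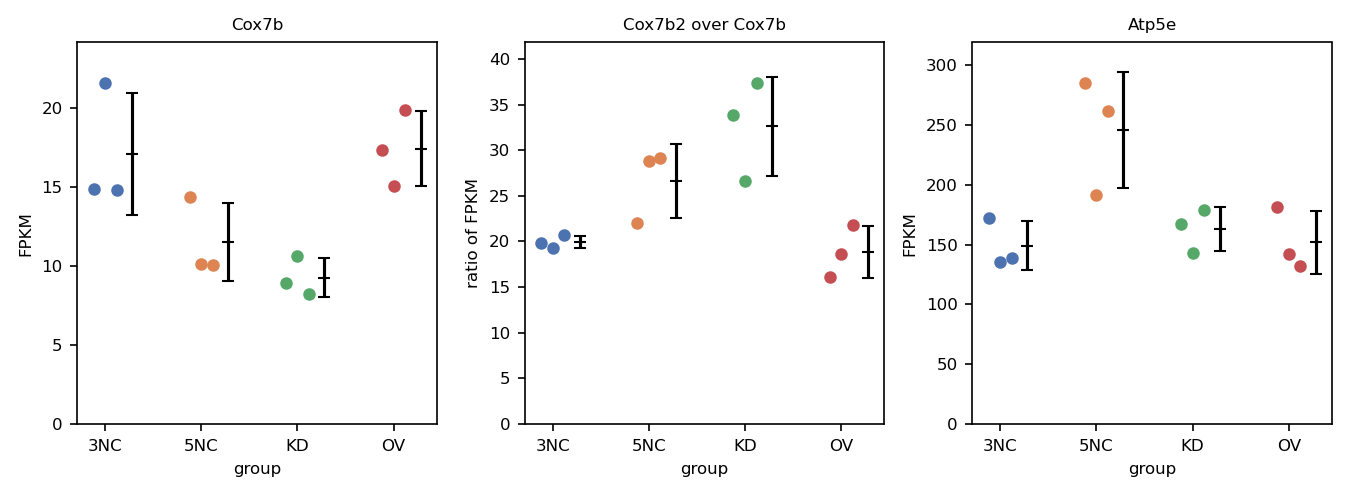
Cox7b (FPKM), the ratio of Cox7b2 to Cox7b, and Atp5e (FPKM) by group. Points are libraries, in replicate order from left to right, and bars give the mean ± SD of 3. Cox7b is high in 3NC and OV and low in 5NC and KD, and Atp5e is highest in the 3 libraries of 5NC.

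Atp5e (gene 67126, chromosome 2, 174461075 to 174464101), the epsilon subunit of the ATP synthase head, had 172, 136 and 139 FPKM in 3NC, 285, 191 and 262 in 5NC, 167, 143 and 179 in KD and 181, 142 and 132 in OV. All 5NC libraries lay above the other 9. The log2 fold change was 0.74 ± 0.16 in 5NC against 3NC (edgeR adjusted p = 0.0727) and −0.70 ± 0.16 in OV against 5NC (adjusted p = 0.32), and it did not pass in either. KD against 3NC gave 0.17 ± 0.16. With a replicate block in the same fit, 5NC against 3NC passed (adjusted p = 0.0252), the 1 gene of the set that did (against 0.306% of all genes), and DESeq2 called both differences (adjusted p = 0.00132 and 0.0116). Without 5NC replicate 2, OV replicate 1 or OV replicate 3, edgeR also called 5NC against 3NC (adjusted p = 0.0387, 0.0459 and 0.0424).

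The control group 5NC held the highest level for much of the set. The mean was highest in 5NC for 50 of the 86 tested genes (58.1%, against 28.9% of all genes tested), in KD for 20 (23.3%, against 22.3%), in 3NC for 8 (9.3%, against 23.8%) and in OV for 8 (9.3%, against 25%). Summed over all members, the libraries had 6493 ± 367 CPM in 3NC, 6899 ± 59.7 in 5NC, 6709 ± 23.4 in KD and 6373 ± 108 in OV (SD, n = 3). The 3 libraries of 5NC, at 6840.5 to 6959.9, lay above the other 9. For 12 of the 86 genes (14%, against 1.25% of all genes) all 5NC libraries lay above the other 9 in CPM, the scale on which overlap between groups was counted. They included Ndufs5, Ndufs8, Ndufv3 and Ndufa2 of complex I, Sdha, Uqcr10, Cox4i1 and Cox7a1, and Atp5d, Atp5e and Atp5j of the ATP synthase. They were picked out by this pattern, so no test was made on it.

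In CPM, 5NC replicate 1 lay above the mean of the other two 5NC libraries for 53 of the 86 genes, with a median log2 difference of 0.04. The share over all genes was not counted. Leydig cell markers (7 of 7 in the table, none at 0) summed to 1776 to 3046 CPM in 5NC, 1973 to 2286 in 3NC, 1519 to 2312 in KD and 1249.7 to 2053 in OV. Sertoli cell markers (8 of 8, none at 0) summed to 873 to 1311 in 5NC and 654 to 893 in the other groups. In both lists the top value was that of 5NC replicate 1. With replicate 1 set aside, 5NC replicates 2 and 3 lay above the other 9 libraries for 15 genes (17.4%, against 2.66% of all genes). Epididymis markers (4 of 6 in the table, none at 0) summed to 115 and 121 CPM in 5NC replicates 2 and 3 and to 0.749 to 14.1 in the other 10 libraries. The part of these cell types in the levels was not tested.

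**Figure D3:**
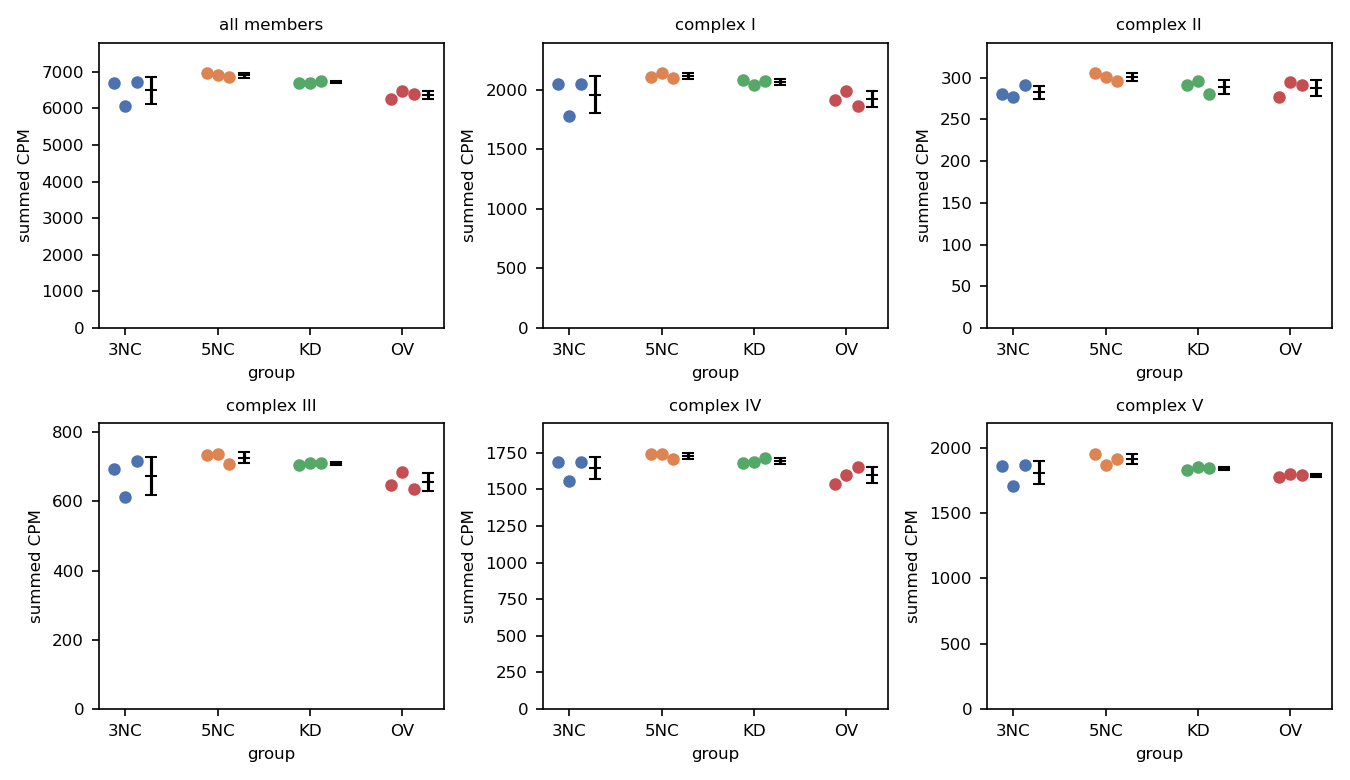
Summed CPM of all 89 genes and of complexes I to V in each library, by group, with the mean ± SD of 3 libraries beside the points and all axes from 0. The 3 libraries of 5NC lie above the other 9 in the sum of all genes (6840.5 to 6959.9 CPM).

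5NC against 3NC compares the control groups. Of the 86 genes, 68 had a positive log2 fold change (79.1%, against 51.9% of all genes) and 18 a negative one, with a median of 0.10 against 0.01 for all genes tested. None passed in edgeR (0 of 86, against 0.362% of all genes). At an unadjusted p under 0.05, 12 genes were found (14%, against 12.1%), with 11 higher (12.8%, against 5.94%) and 1 lower (1.16%, against 6.15%). DESeq2 called 2, Atp5e and Ndufa2 (against 0.907% of all genes). By group, 32 of 37 complex I genes were positive, 4 of 4 in complex II, 6 of 8 in complex III, 14 of 18 in complex IV and 12 of 17 in complex V. Both cytochrome c genes were negative. Libraries did not overlap for 24 genes higher and 1 lower in 5NC, 27.9% and 1.16%, against 8.13% and 8.72% of all genes, and the 1 lower gene was Cox7b. Without 5NC replicate 1 the split stayed 68 to 18 with a median of 0.09, and 5 higher and 1 lower genes had an unadjusted p under 0.05 (6.98%, against 7.36% of all genes). Without 3NC replicate 2 the split was again 68 to 18, with a median of 0.06 and 5.81% at that p (against 7.56% of all genes). Without 3NC replicate 3 the median was 0.15, with 26.7% at that p (against 14.7%).

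Ndufa2 (gene 17991, chromosome 18, 36742332 to 36744587), an accessory subunit of complex I, had 98.9, 88.9 and 98.1 FPKM in 3NC, 132, 123 and 116 in 5NC, 105, 114 and 107 in KD and 103, 105 and 87.6 in OV. Each 5NC library lay above the other 9, and each KD library lay above each 3NC library. The log2 fold change was 0.37 ± 0.09 in 5NC against 3NC (edgeR adjusted p = 0.156), 0.21 ± 0.09 in KD against 3NC and −0.32 ± 0.09 in OV against 5NC, and none passed. It overlaps Tmco6, whose reads may be shared. Ndufs8 had 26.5, 22.9 and 24 FPKM in 3NC, 35.6, 28.1 and 29.2 in 5NC, 23.7, 27 and 24.1 in KD and 24.9, 27.8 and 22.6 in OV, with 0.31 ± 0.11 in 5NC against 3NC. Ndufb11, on the X chromosome, had 15.9, 16.2 and 16.4 FPKM in 3NC, 24.6, 15.9 and 21.1 in 5NC, 15.1, 15.7 and 14.9 in KD and 17.2, 15.3 and 17.3 in OV, with 0.35 ± 0.13 in 5NC against 3NC. In FPKM its 5NC replicates 1 and 3 were the highest libraries, and 5NC replicate 2 lay within the range of the other groups.

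OV against 5NC asks how the subunits stood when lncRNA8276 was overexpressed. Of the 86 genes, 72 had a negative and 14 a positive log2 fold change (16.3%, against 49.7% of all genes), with a median of −0.13. Over all 16320 genes the median was 0.00 and 50.3% were negative. None passed in edgeR (0 of 86, against 0% of all genes), and at an unadjusted p under 0.05 there were 21 (24.4%, against 10.4% of all genes). Of these, 20 were lower (23.3%, against 4.79%) and 1 higher (1.16%, against 5.61%). DESeq2 called Atp5e alone (1 of 86, against 0.306% of all genes). Libraries did not overlap for 34 genes lower in OV (39.5%, against 7.56% of all genes) and 2 higher (2.33%, against 7.64%), Cox7b and the pseudogene Ndufa11b. Markers of several somatic cell types differed in the same comparison, with 0 genes called in edgeR. Macrophage markers were positive for 7 of 7 (5 at an unadjusted p under 0.05, median 0.71). Their sum was highest in OV replicate 1, at 150 CPM. OV replicates 2 and 3 had 85.5 and 68.1, and 5NC replicate 1 had 78.3. Peritubular cell markers were negative for 5 of 5 (all 5, median −0.47), Leydig cell markers for 7 of 7 (3, median −0.50) and Sertoli cell markers for 7 of 8 (2, median −0.18). Epididymis markers were negative for 3 of 3 tested (all 3, median −4.30). Endothelial markers were positive for 3 and negative for 2, and erythrocyte markers positive for 3 and negative for 1, with 0 at that p in both. The markers of all these lists were read without a test of the list. Their part in the values of the set was not tested. The 5NC libraries are shared with the comparison of controls, in which most of these genes stood higher in 5NC. Against 3NC, OV had 34 positive (against 50% of all genes) and 52 negative values, a median of −0.02 and 0 genes at an unadjusted p under 0.05 (against 5.34% of all genes).

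By complex, 33 of 37 complex I genes were negative in OV against 5NC, 4 of 4 in complex II, 7 of 8 in complex III, 14 of 18 in complex IV and 13 of 17 in complex V, while Cycs was negative and Cyct positive. The medians were −0.16 for complex I, −0.06 for complex II, −0.20 for complex III and −0.10 for complexes IV and V. Uqcr10, a small subunit of complex III, had 153, 142 and 159 FPKM in 3NC, 199, 177 and 165 in 5NC, 146, 159 and 152 in KD and 134, 154 and 116 in OV, and every OV library lay below every 5NC library. Its log2 fold change was −0.42 ± 0.11 (edgeR adjusted p = 0.404). Cox6a1, the general form of subunit 6A, had 233, 199 and 268 FPKM in 3NC, 319, 235 and 246 in 5NC, 219.9, 263 and 226 in KD and 201, 218 and 190.3 in OV, with −0.39 ± 0.12 (adjusted p = 0.404). Cox4i1, the general form of the regulatory subunit 4, had 358, 326 and 362 FPKM in 3NC, 390.0, 383 and 371 in 5NC, 365, 346 and 356 in KD and 334, 334 and 331 in OV. Its log2 fold change of −0.19 ± 0.07 was smaller, and again no OV library reached a 5NC library.

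Other subunits lay near 0 in OV against 5NC. Ndufv2 had 0.00 ± 0.07, Uqcrfs1 −0.03 ± 0.07, Cox5a 0.00 ± 0.06, Cox8c −0.01 ± 0.07 and Atp5b −0.05 ± 0.07. Ndufs1, the largest core subunit of complex I, had 0.08 ± 0.08, and Atp5c1, the gamma subunit on the rotor stalk, 0.11 ± 0.08. Cox7a1, the muscle form, had the most negative value, −0.81 ± 0.29, on 12 to 31 reads in a library.

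A fit chosen after the data were seen took only the OV and 5NC libraries, with the replicate number as a block, and 6 of the set passed (against 1.35% of all genes, 215 of 15950). No label states that the replicate number pairs these libraries. Cox7b was higher (0.61, edgeR adjusted p = 0.0359), and Atp5e (−0.71, 0.000105), Uqcr10 (−0.44, 0.0164), Atp5d (−0.40, 0.0298), Cox6a1 (−0.39, 0.0299) and Cox6b2 (−0.35, 0.0398) were lower. With the block in the fit of all 12 libraries 0 passed in OV against 5NC. Without 5NC replicate 1, OV against 5NC had 73 negative and 13 positive values and a median of −0.13, with 6 lower and 1 higher at an unadjusted p under 0.05 (8.14%, against 7.05% of all genes). Without OV replicate 3 and 3NC replicate 2 it had 80 negative and 6 positive values and a median of −0.14, with 31 lower and 1 higher (37.2%, against 9.91%).

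**Figure D4:**
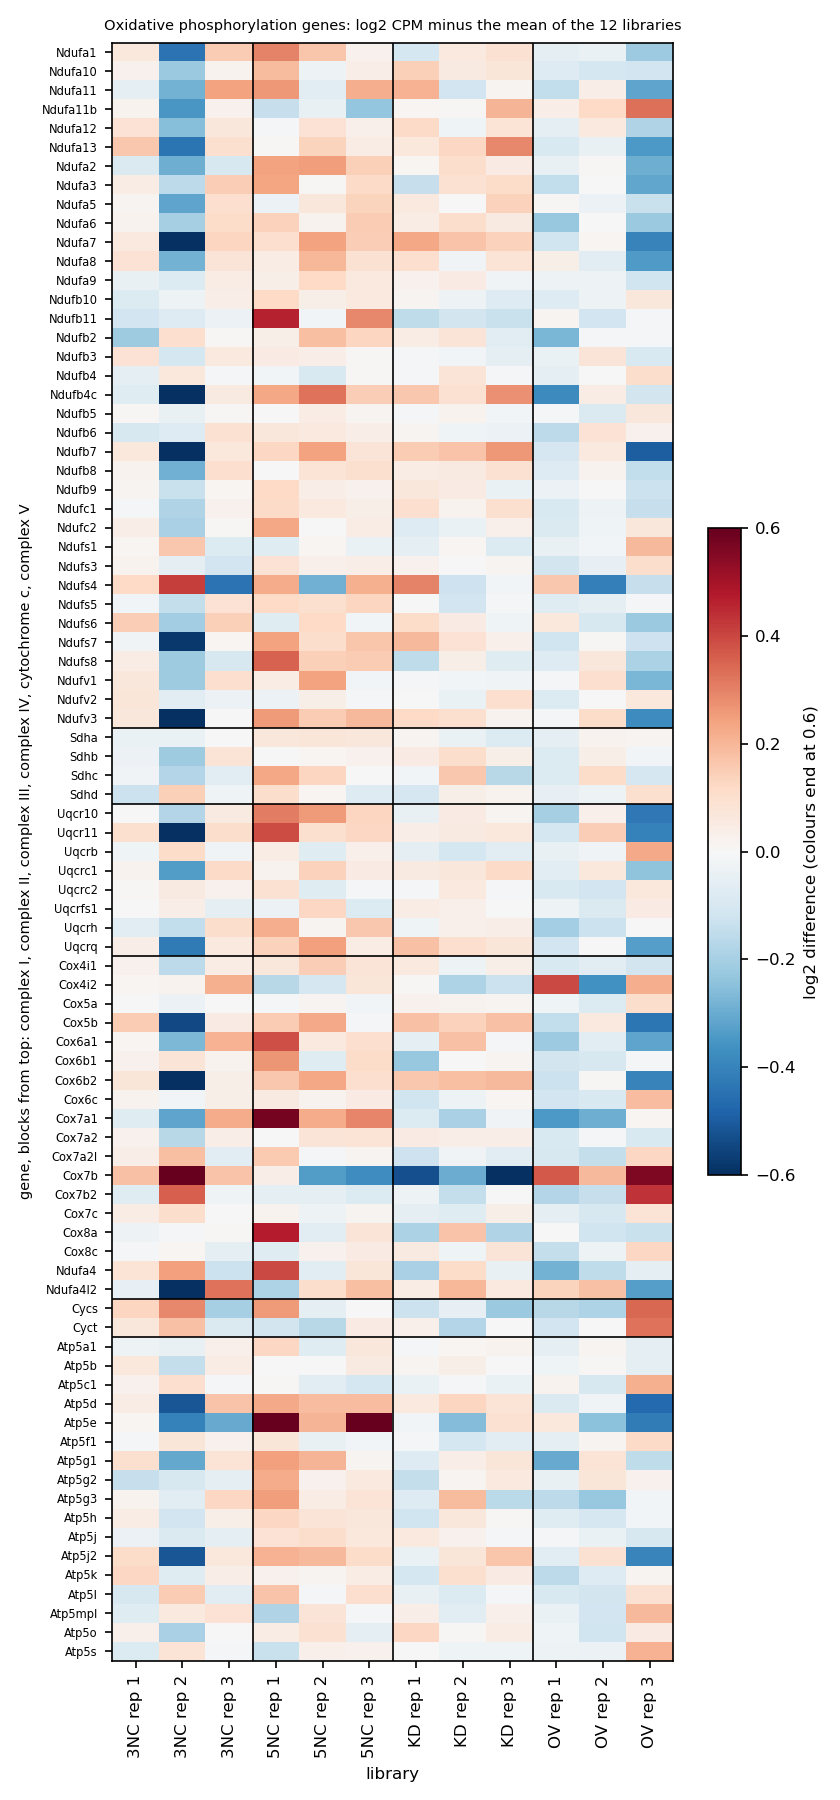
Log2 CPM of 85 of the 86 tested genes (rows, by complex) in the 12 libraries (columns, by group) minus the mean of each gene over the 12, with colours ending at 0.6 in either direction. Many rows are high in 5NC, 3NC replicate 2 and OV replicate 3 are low in many of the same rows, and Cox7b runs against its neighbours.

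KD against 3NC asks how the subunits stood when lncRNA8276 was inhibited. Of the 86 genes, 55 had a positive (64%, against 49.5% of all genes) and 31 a negative value, with a median of 0.04 against 0.00 for all genes. None passed in edgeR (0 of 86, against 0.178% of all genes), and 4 had an unadjusted p under 0.05 (4.65%, against 6%). Of these, 3 were higher (3.49%, against 2.53%) and 1 lower (1.16%, against 3.47%). DESeq2 called Cox7b alone (adjusted p = 0.00345, against 0.435% of all genes called). In complex I 30 of 37 were positive, in complex III 6 of 8, in complex IV 8 of 18, in complex V 9 of 17 and in complex II 2 of 4, and Cycs and Cyct were negative. Libraries did not overlap for 11 genes higher and 5 lower in KD (12.8% and 5.81%, against 7.72% and 8.74% of all genes). The 3 higher genes at an unadjusted p under 0.05 were Ndufa2, Ndufb4c (0.42 ± 0.19) and Cox6b2.

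That split depended on 3NC replicate 2. Without it and OV replicate 3, 39 values were positive and 47 negative in KD against 3NC, with a median of −0.01. Ndufb4c had 28, 17.4 and 30.7 FPKM in 3NC, 36.8, 36.4 and 32.6 in 5NC, 32.9, 31.7 and 35.2 in KD and 22.5, 30.1 and 28 in OV, and the lowest value of all was that of 3NC replicate 2. Ndufb7, another accessory subunit of complex I, had 108, 70 and 108 FPKM in 3NC, 118, 119 and 108 in 5NC, 114, 117 and 122 in KD and 97.2, 106 and 74.6 in OV, with 3NC replicate 2 lowest and OV replicate 3 next. Against 5NC, KD had 27 positive (against 47.5% of all genes) and 59 negative values, a median of −0.06, and 4 lower genes at an unadjusted p under 0.05 (4.65%, against 5.06% of all genes).

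Taking the OV effect minus the KD effect, 69 of 86 values were negative and 17 positive (19.8%, against 50% of all genes), with a median of −0.18 against 0.00 over all genes. At an unadjusted p under 0.05 there were 21 (24.4%, against 15.7% of all genes). Of these, 20 were lower (23.3%, against 6.96%) and 1 higher (1.16%, against 8.73%), and Cox7b, the higher one, passed. DESeq2 called 3, Cox7b, Ndufa2 and Atp5e (against 0.588% of all genes), and edgeR with the replicate block called 0 (against 0.0797%). Next in p came Ndufa2 (−0.53 ± 0.13, edgeR adjusted p = 0.213), Atp5e (−0.87 ± 0.22, 0.216) and Cox6b2 (−0.65 ± 0.21, 0.257). A joint test of any difference among the 4 groups called 0 of the 86 (against 0.337% of all genes), with 8.14% at an unadjusted p under 0.05 against 9.07% of all genes. That share changed when single libraries were left out. It was 19.8% without 3NC replicate 2 (against 10.1% of all genes), 17.4% without 3NC replicate 3 (against 9.95%) and 3.49% without 5NC replicate 1 (against 7.42%). Without OV replicate 2 it was 14% (against 10.1%), and without any other single library 5.81% to 9.3% (against 6.86% to 9.76%). In the joint test DESeq2 called the same 3 (against 1.73%). In edgeR Cox7b had the smallest p of the set in that test (adjusted p = 0.063).

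Within groups, single libraries departed from the other two for many genes at once. Relative to the other two libraries of its group, 3NC replicate 2 was lower for 62 of 86 genes, with a median log2 difference of −0.17 and an SD of 0.30 over genes, and OV replicate 3 was lower for 43 of 86, with an SD of 0.23. The SD was 0.09 to 0.20 in the other 10 libraries. Over all genes tested the SD was 0.38 in 3NC replicate 2, 0.38 in OV replicate 3 and 0.24 to 0.35 in the other 10. Both libraries were thus the widest over all genes as well, though they stood closer to the other 10 there than within the set. Lower genes were not counted over all genes. Across the 86 genes the log2 differences had a Pearson r of 0.76 between 3NC replicate 2 and OV replicate 3, the largest of all pairs of libraries from different groups, and the same sign for 63 genes. Over all genes tested r was 0.24. Genes within a library are not independent, and the pair was chosen for its size.

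Chosen after their values were seen, Cox7b2, Cycs, Cox7b and Atp5l stood high in both libraries, and Ndufa7, Ndufb7, Cox6b2, Cox5b, Uqcr11 and Ndufv3 stood low. Cox5b, a zinc-binding subunit of complex IV, had 282, 181 and 263 FPKM in 3NC, 298, 290.2 and 251 in 5NC, 284, 281 and 282 in KD and 232, 262 and 192 in OV. Ndufa7 had 243, 148 and 255 FPKM in 3NC, 263, 269 and 257 in 5NC, 272, 264 and 253 in KD and 217, 233 and 181 in OV. For both genes the 2 lowest libraries of the 12 were 3NC replicate 2 and OV replicate 3. The difference moved with base composition, taken as the GC of the longest GENCODE transcript. Over 85 genes with such a transcript r was −0.57 in 3NC replicate 2 and −0.52 in OV replicate 3. Over 15890 of all genes it was −0.54 and −0.49. The GC of the set ran from 36.7% to 63.3% with a median of 50.2%, against a median of 49.6% over all genes. The log2 fold changes moved with GC as well. Over the 85 genes r was −0.33 in OV against 5NC, 0.41 in KD against 3NC and 0.41 in 5NC against 3NC, and over all genes −0.32, 0.29 and 0.28. For the OV effect minus the KD effect r was −0.41 over the 85 genes and −0.39 over all genes. In OV against 5NC the median was −0.18 for the 42 genes above the median GC, 37 of them negative, and −0.09 for the 43 others, 34 of them negative. In the OV effect minus the KD effect these medians were −0.24 (37 negative) and −0.08 (31 negative). Cox7b, which passed there with a positive value, had a GC of 42.0%. Whether base composition, RNA quality or another property of these libraries set the differences was not tested.

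**Figure D5:**
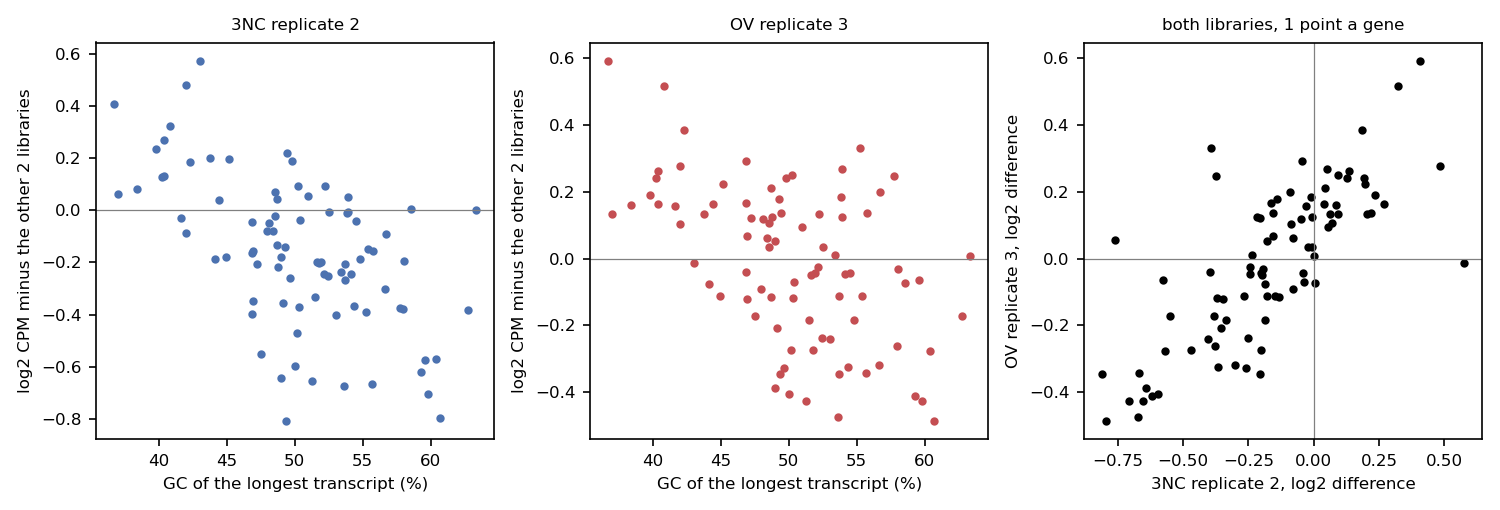
Log2 CPM of each gene in 3NC replicate 2 (left) and OV replicate 3 (middle) minus the mean of the other two libraries of its group, against the GC of its longest transcript, and both differences against each other (right). Genes of high GC lie lower in both libraries, and the differences have a Pearson r of 0.76 over 86 genes.

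Other genes of mitochondrial energy supply were read from separate lists. In edgeR 0 of the 45 assembly factors passed in OV against 5NC, KD against 3NC or 5NC against 3NC (against 0%, 0.178% and 0.362% of all genes). At an unadjusted p under 0.05 there were 1, 1 and 2 of the 45 (against 10.4%, 6% and 12.1% of all genes). In the OV effect minus the KD effect 29 were negative, with a median of −0.08. There 1 higher and 5 lower of the 45 had that p (against 8.73% and 6.96% of all genes). In OV against 5NC 29 assembly factors were negative and 16 positive, with a median of −0.04, and in 5NC against 3NC 29 were positive, with a median of 0.07. Uqcc2, an assembly factor of complex III, stood at 479 FPKM, and Cox14, which helps start assembly of complex IV, had −0.40 in OV against 5NC. Of 22 genes of the citrate cycle and pyruvate entry, 21 were in the table and 0 passed, with a median of 0.00 in OV against 5NC, −0.04 in KD against 3NC and −0.02 in 5NC against 3NC. The negative ones of the 21 were 11 in OV against 5NC (against 50.3% of all genes). They were 17 in KD against 3NC (against 50.5%) and 15 in 5NC against 3NC (against 48.1%). Pdha2, the testis form of the pyruvate dehydrogenase alpha subunit, had 97.8 FPKM against 3.38 for the X-linked Pdha1.

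The 7 carriers and channels for adenine nucleotides and phosphate had 3 positive and 4 negative values in each pairwise comparison just given, and 0 passed. Slc25a31, the germ cell form of the ADP/ATP carrier, had 32.8 FPKM, Slc25a4 25.3 and Slc25a5 39.4. Of 14 regulators of mitochondrial biogenesis 0 passed in the same comparisons. The shares over all genes were 0% in OV against 5NC, 0.178% in KD against 3NC and 0.362% in 5NC against 3NC. Of the regulators, 10 were positive in OV against 5NC (against 49.7% of all genes), with a median of 0.04. In KD against 3NC the positive ones were 6 (against 49.5%), with a median of 0.00. In 5NC against 3NC they were 4 (against 51.9%), with 10 negative and a median of −0.08. Tfam, a factor for the packaging and transcription of mitochondrial DNA, had 112 FPKM, Nrf1 9.14 and the coactivator Ppargc1a 0.14. Ndufab1, the acyl carrier subunit of complex I that the symbol rule did not take, had 54.3 FPKM and −0.08 in OV against 5NC. The 13 genes of the mitochondrial genome were not analysed here.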

How the data were processed

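Total RNA of 12 testis libraries in 4 groups of 3 was analysed from 1 deposited table. One block of columns held expected counts as the authors deposited them (not normalised, per the file headers). Of these, 88% were whole within 1e-06, and all were rounded before the tests. A second block the authors deposited held values of no named unit, taken as FPKM because the value per read, times the library total, varied between libraries by a median of 0.51% (coefficient of variation, 5204 genes above 500 reads). The build was mm10, per the submitters' processing notes. For the aligner, counter and strandedness, the tool or setting is not given in the sources used here. In the table, 18 per-sample columns of no sample here were not used.

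Libraries held 15448442 to 16355720 reads, and a count of 0 allows up to 3 reads (0.183 to 0.194 CPM, counting error only). The fit across genes used edgeR 4.0.16 (R 4.3.3): quasi-likelihood (robust), TMM, filterByExpr (minimum count 10, minimum total 15), 1 fit of 4 groups, 16320 genes, common biological coefficient of variation 0.13. Calls needed a Benjamini-Hochberg adjusted p under 0.05 over all genes. Log2 fold changes carry a prior count of 0.125, and their SE is the value over the root of F, which is approximate. Alternatives were DESeq2 1.42.0, limma 3.58.1 on log2(FPKM + 1), other scaling and filters, each library left out, the other control and a replicate block. Libraries of a group differed by more than sampling noise (chi-square per degree of freedom 2.93 to 21.3), so none was counted as a duplicate. CPM used the TMM-corrected library sizes (factors 0.986 to 1.058), and FPKM were used as deposited.

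Members and gene lists were chosen with earlier results of these data known. Genes named were the tissue isoforms and their counterparts, the genes called, the 5 higher and 5 lower of smallest p in each comparison and the 2 highest in each complex. Others were named after their values were seen, to show the spread within a complex or a library. The values of 1 gene of the set are not reported here, though it enters the counts and sums.

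Deviations of libraries with the same replicate number had r = 0.165, 0.149 and 0.109 between OV and 5NC, which met the rule for pairing (every r over 0.1), 0.0079 to 0.0558 between KD and 3NC and −0.0339 to 0.021 between 5NC and 3NC. Measured against the other libraries of a group, matched OV and 5NC libraries had r = 0.18, 0.17 and 0.14 over all genes. OV and 5NC libraries of unlike number had −0.16 to −0.0079. Such deviations cancel within a group, so positive matched values push the unlike values below them. The contrast of matched and unlike libraries is thus no separate support for pairing. Yet r was 0.24 between 3NC replicate 2 and OV replicate 3 and 0.19 between 3NC replicate 3 and OV replicate 2. An r over 0.1 alone thus cannot show pairing. The pairing is an assumption made from these data, and no label states it.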

Additional observations from a re-analysis of the deposited data

Results flagged for a closer look

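The effects of OV and KD on Cox7b differed by 1.48 on the log2 scale in the test of the difference itself (edgeR adjusted p = 0.0461). OV was 0.61 above 5NC, higher in 3 of 3 libraries, and KD was 0.87 on the log2 scale below 3NC, lower in 3 of 3. The controls differed as well, with 5NC 0.58 below 3NC, so against the other control OV had 0.03 and KD −0.28.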

How the results depend on the processing

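Directions by sign of the median held for OV against 5NC, 5NC against 3NC and the OV effect minus the KD effect under every alternative run, and DESeq2's size factors and a filter at a mean of 1 CPM changed no member call. With DESeq2, genes called were 50 (OV against 5NC, 0 in edgeR), 71 (KD against 3NC, 29), 148 (5NC against 3NC, 59), 96 (OV minus KD effect, 10) and 283 (any difference, 55), and members called were 1, 1, 2, 3 and 3, against 0, 0, 0, 1 and 0. With limma on FPKM, genes called were 33 (5NC against 3NC), 5 (OV minus KD effect) and 33 (any difference), and 0 members in OV minus KD. Without a low-count filter 1 member was called for any difference. With a replicate block members called were 1 (5NC against 3NC), 0 (OV minus KD effect) and 1 (any difference). With the block in the 6 OV and 5NC libraries alone 215 genes and 6 members were called, and the block changed no other member call. Without 3NC replicate 2 and OV replicate 3, genes called were 36 (OV against 5NC), 18 (KD against 3NC) and 144 (any difference), and 0 members in OV minus KD. Against the other control, OV had 52 genes called and a median of −0.022, and KD 8 genes and a median of −0.061. Leaving out 1 library at a time, genes called ranged from 0 to 5 (OV against 5NC), 10 to 34 (KD against 3NC), 16 to 76 (5NC against 3NC), 4 to 23 (OV minus KD effect) and 28 to 126 (any difference). Members called were 0 to 1 in the last 3 and 0 in OV against 5NC and KD against 3NC. The medians ranged from −0.14 to −0.13, from −0.01 to 0.07, from 0.06 to 0.15 and from −0.21 to −0.14. Signs turned with the other control for Atp5e (0.036) and Ndufa2 (0.053) in OV and for Ndufa2 (−0.16), Ndufb4c (−0.063) and Ndufs7 (−0.068) in KD. With 1 library left out, Ndufs1 ranged from −0.0011 (without OV replicate 3) to 0.13 in OV against 5NC and from −0.11 to 0.0099 (without 3NC replicate 2) in 5NC against 3NC, and without 3NC replicate 2 and OV replicate 3 together it had −0.0028 and 0.0099. Cox7b2 in OV minus KD effect ranged from 0.07 to 0.40 with 1 library left out and had −0.091 without both. The cause was not tested. Depth limits Cox6a2, Cox8b and Ndufb4b, with at most 8 reads in a library.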
